A study of Rattus norvegicus with 10 samples.

Results

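Microglia are the resident macrophages of the brain, and 10 genes that mark them or macrophages in general are described here in the NTS (nucleus tractus solitarii), where baroreceptor and other visceral afferents end in the brainstem. The genes were chosen by name: Cx3cr1, P2ry12 and Csf1r as genes of the resting, surveying state, called homeostatic below, and Ctss, Lyz2, Cd68, Aif1, Itgam, Tyrobp and Cd53 as lysosomal and activation genes. Both set names are labels only, since several of the latter genes, such as Aif1 and Cd53, mark microglia or macrophages in general. The array's annotation gave one of the 10 genes as the only gene symbol for 12 of 31042 probe sets. P2ry12 and Aif1 had 2 probe sets each, and each of the other genes had 1. One group of arrays held NTS of the spontaneously hypertensive rat (SHR), inbred and becoming hypertensive with age, and the other NTS of the Wistar-Kyoto rat (WKY), the related strain with normal pressure. Both groups were male rats aged 10 to 13 weeks, with no treatment named, and each had 5 Affymetrix Rat 230 2.0 arrays. The strains differ across the whole genome, so the comparison is of strains and not of a single allele. The sample descriptions speak of 5 animals, whereas independent biological replicates are named in the design text, and whether an array is 1 animal or a pool is not clear, so p-values reflect only how far these samples spread.

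Microglia are kept alive through Csf1r, the receptor for the growth factors Csf1 and Il34, and sense neurons through Cx3cr1, the receptor of the neuronal chemokine Cx3cl1, and through P2ry12, a purinergic receptor that guides their processes to released nucleotides. When they are activated or engulf material, microglia and macrophages are known to raise lysosomal proteases and surface molecules, and homeostatic receptors such as P2ry12 are known to fall. In whole tissue, fewer cells of a type and less RNA per cell cannot be told apart.

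Signals are the authors' linear values, scaled so that each array has the same trimmed mean, and differences are SHR minus WKY on log2(signal + 16), tested with limma and adjusted by Benjamini-Hochberg over all 18846 probe sets bright enough to test. Of those, 4.26% passed an adjusted p of 0.05, 2.2% lower and 2.06% higher in SHR. The median signal of an array was 44.2 to 49.8 in SHR and 39.6 to 45.7 in WKY, with SHR 3 and SHR 2 highest and WKY 5 and WKY 4 lowest. Dim probe sets leaned upward in SHR: kept probe sets with a mean signal under 50 had a median difference of 0.11, with 69.1% above 0, against -0.030 and 39.0% for those at 200 or more. Of 8 markers of NTS neurons, 7 were measured, and their summed signal was 1818 to 1978 in SHR and 2058 to 2717 in WKY. Prlh, the prolactin-releasing hormone gene (log2 difference -0.42), and Tac1, the substance P precursor (-0.33), passed as lower, while the median of these markers was -0.18. The call of Tac1 held in all 10 fits without 1 array and that of Prlh in 3 of them, those without WKY 1, WKY 3 or WKY 4, and both ended with array median signal as a covariate.

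Of the 12 probe sets, 11 were bright enough to test. Aif1, Lyz2, Cd53 and Ctss were lower in SHR on 1 probe set each, which makes 4 of 11 against the 2.2% of all tested probe sets that were lower, and 0 were higher. These differences were modest, from 1.21-fold to 1.44-fold lower in SHR on the scale of signal + 16, which understates the change of dim probe sets. No probe set of Cx3cr1, P2ry12 or Csf1r passed, and neither did those of Itgam and Tyrobp or the second probe set of Aif1. Cd68 was too dim to test. In 5 of the 11 no SHR array reached the lowest WKY array, against 2.91% of all tested probe sets, and in 0 of the 11 did all SHR arrays exceed all WKY arrays, against 3.22%. The members were chosen with earlier results on these arrays known, and 1 of these 5, Itgam, reached the filter through its WKY arrays, so neither count supports a change of the group.

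**Figure D1:**
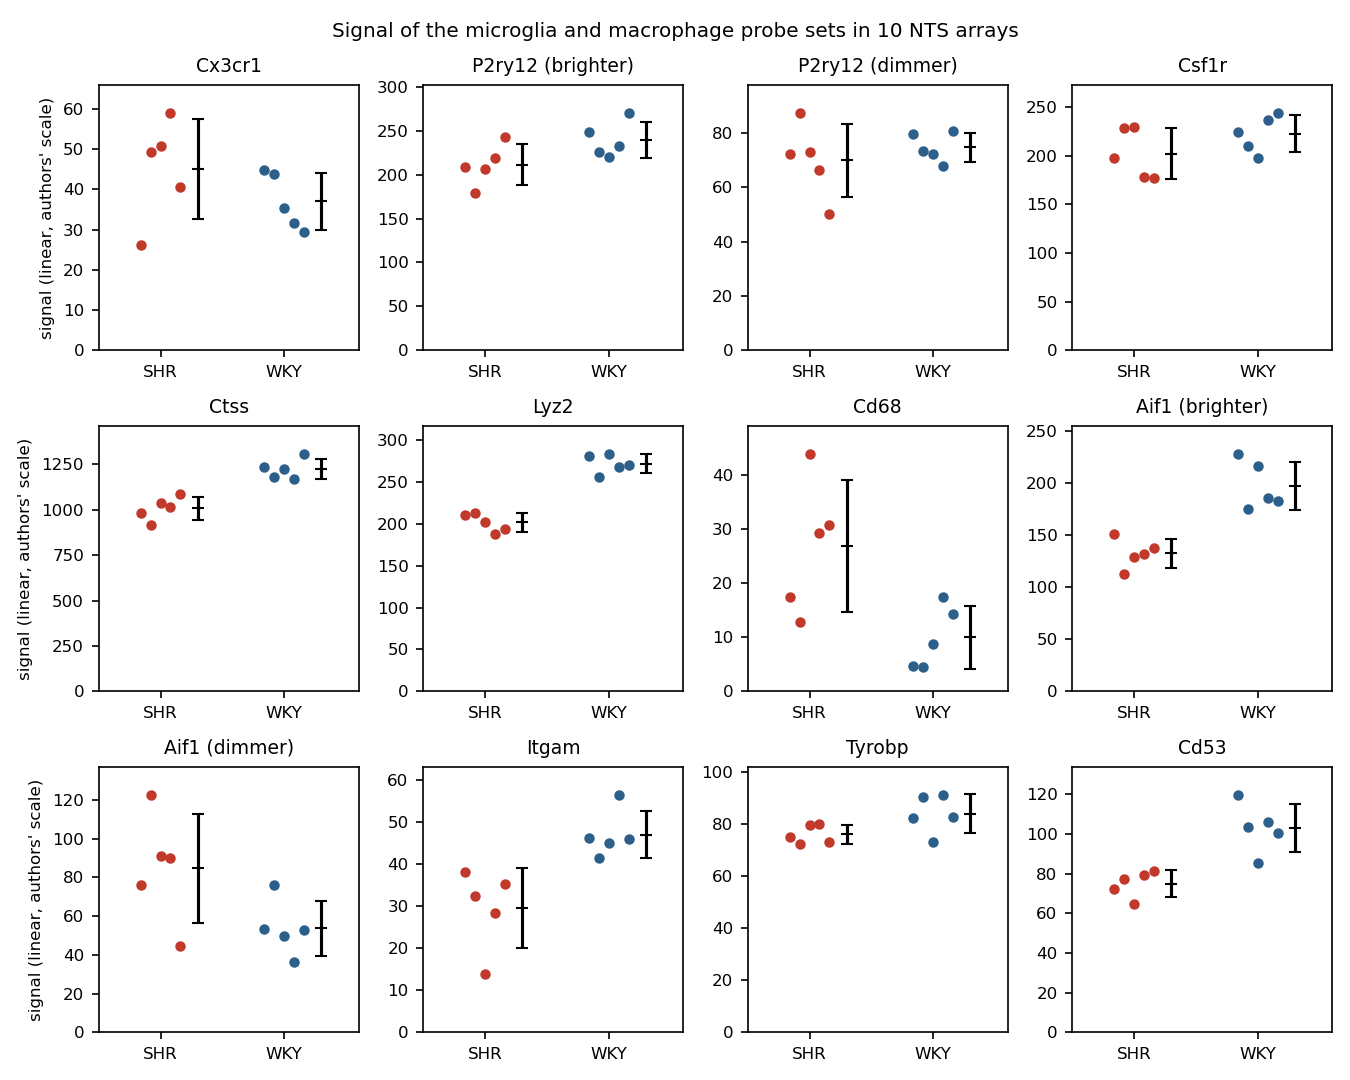
Linear signal of the 12 probe sets in each array, SHR left and WKY right in every panel, with the mean and SD (n = 5) beside the points. Ctss, Lyz2, the brighter probe set of Aif1, Itgam and Cd53 show SHR points entirely below WKY points. The homeostatic panels of the top row overlap.

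Among the homeostatic receptors, Csf1r had signals of 197, 229, 229.6, 178 and 177 in the 5 SHR arrays, against 225, 209.9, 197, 237 and 244 in the 5 WKY arrays. The ranges overlapped, and 3 of the SHR arrays lay below the WKY median. Its mean was 202 ± 25.9 in SHR and 222 ± 19.1 in WKY (SD, n = 5 each), a log2 difference of -0.13 ± 0.086 (SE; limma adjusted p = 0.395) with a 95% interval of -0.32 to 0.049.

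P2ry12 was measured on a brighter and a dimmer probe set. The brighter had 209, 179, 206, 219 and 243 in SHR, against 248, 225, 220, 232 and 270 in WKY. In 4 of 5 SHR arrays the signal was below the lowest WKY array, and SHR 5 lay inside the WKY range. The log2 difference was -0.17 ± 0.081 with a 95% interval of -0.34 to 0.00075 (limma adjusted p = 0.240). The dimmer probe set had 72.4, 87.3, 73.1, 66.2 and 50.3 in SHR, against 79.4, 73.3, 72.2, 67.7 and 80.6 in WKY, and SHR held both its highest and its lowest value. It differed by -0.091 ± 0.11 (limma adjusted p = 0.681). The log2 ratio of the brighter to the dimmer probe set was 1.41 ± 0.38 in SHR and 1.49 ± 0.070 in WKY (SD, n = 5 each; exact two-sided permutation p = 0.611).

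Cx3cr1, the fractalkine receptor, had 26.2, 49.2, 50.7, 58.9 and 40.5 in SHR, against 44.7, 43.9, 35.4, 31.6 and 29.4 in WKY. SHR 2, SHR 3 and SHR 4 were above every WKY array, and SHR 1 was the lowest of all 10. Its log2 difference was 0.19 ± 0.15 with a 95% interval of -0.14 to 0.51 (limma adjusted p = 0.510). With quantile normalization it was 0.074, and a fit with array median signal as a covariate turned the sign, to -0.037. The signal of Cx3cr1 is in the dim range where kept probe sets had a median difference of 0.11. The part of that shift in the value was not tested.

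The ligands of these receptors were measured too. Cx3cl1 (fractalkine) averaged 283 ± 41.3 in SHR and 255 ± 40.5 in WKY, and Il34 had 63.3 ± 20.5 and 53.4 ± 6.51 (SD, n = 5 each). Csf1 averaged 240 ± 41.4 in SHR and 185 ± 22.1 in WKY, and its difference of 0.34 ± 0.10 missed the threshold (limma adjusted p = 0.0681). The other 3 probe sets of Csf1 differed by 0.071, -0.13 and 0.15. Cd200 and Cd47, neuronal surface proteins that restrain microglia, differed by -0.060 and 0.024. Icam1, an adhesion ligand of the integrin that Itgam and Itgb2 form, averaged 21.0 ± 16.3 in SHR and 31.5 ± 9.005 in WKY, with a difference of -0.45 ± 0.25 (limma adjusted p = 0.319). Of the 6 ligand genes tested 0 passed, though 1 was higher without SHR 1 and with the replicate number as a block, and their median difference was 0.085, against 0.0020 over the 10668 genes tested on their brightest kept probe set, of which 3.98% passed, 2.32% lower and 1.67% higher in SHR.

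Tyrobp encodes the ITAM adaptor through which Trem2 and other receptors of microglia signal. It had 74.96, 72.4, 79.6, 80.0 and 73.1 in SHR, against 82.5, 90.5, 72.9, 91.1 and 82.8 in WKY. All 5 SHR arrays were below the WKY median, but WKY 3 lay among the SHR arrays. The log2 difference was -0.12 ± 0.087 with a 95% interval of -0.30 to 0.066 (limma adjusted p = 0.462).

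Itgam is the alpha chain of the complement receptor CR3 (CD11b), which pairs with Itgb2. Its signal was 38.2, 32.4, 13.9, 28.5 and 35.3 in SHR, against 46.3, 41.6, 45.0, 56.5 and 46.2 in WKY. No SHR array reached the lowest WKY array, and SHR 3 was lowest. It averaged 29.7 ± 9.51 in SHR and 47.1 ± 5.59 in WKY, and the difference of -0.49 ± 0.15 on the log2 scale missed the threshold (limma adjusted p = 0.0807). Only 2 of 5 SHR arrays but 5 of 5 WKY arrays were at or above the 40th percentile of their array, so WKY alone brought Itgam through the filter. Most kept probe sets this dim were above 0. Itgam was on the lower side in SHR, which entry through WKY alone favours. Without SHR 3 its difference was -0.35, and with offsets of 64 and 1 it was -0.25 and -0.72.

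Itgb2 itself averaged 78.2 ± 11.3 in SHR and 86.4 ± 9.37 in WKY (log2 difference -0.12 ± 0.10; limma adjusted p = 0.519). Fcer1g, an ITAM adaptor like Tyrobp, had 326 ± 27.5 and 364 ± 12.8 (-0.15 ± 0.065; adjusted p = 0.184), and Sirpa, the inhibitory receptor of Cd47, had 336 ± 36.8 and 343 ± 30.3. Trem2 was too dim to test, at 24.0 ± 5.33 in SHR and 25.7 ± 5.39 in WKY. Of 8 such partner genes tested 0 passed, beside 3.98% of all 10668 genes. Among the 8, 4 were below 0 and 4 above, with a median of 0.053.

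Among lysosomal genes, Ctss and Lyz2 were lower in SHR. Ctss encodes cathepsin S, a protease that microglia and macrophages keep active outside acidic lysosomes and that is known to release soluble Cx3cl1 from neurons. Its signal was 985, 915, 1035, 1017 and 1089 in SHR, against 1234, 1178, 1224, 1168 and 1307 in WKY. The highest SHR array, SHR 5, was below the lowest WKY array. The means of 1008 ± 64.4 in SHR and 1222 ± 55.2 in WKY gave a log2 difference of -0.28 ± 0.058 (limma adjusted p = 0.0106), 1.21-fold lower in SHR. The adjusted p stayed below the threshold in all 10 fits without 1 array (0.00775 to 0.0370) but was 0.243 with the median-signal covariate, where the difference was -0.22.

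Lyz2, the lysozyme of macrophages, had 211, 213, 202, 187 and 193 in SHR, against 281, 256, 283, 268 and 270.3 in WKY. The gap between the strains, from 213 in SHR 2 to 256 in WKY 2, was wider than the range within either of them. The means were 201 ± 11.2 for SHR and 272 ± 10.9 for WKY, and the log2 difference was -0.40 ± 0.063 (limma adjusted p = 0.00103), 1.32-fold lower in SHR. In the 22 alternative fits it was lower by 0.34 to 0.45 and passed in each.

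Cd68, a glycoprotein of the lysosomal membrane and a usual marker of phagocytosis, stood on the other side of the comparison. It had 17.4, 12.7, 43.8, 29.2 and 30.8 in SHR, against 4.75, 4.55, 8.75, 17.5 and 14.3 in WKY. SHR 3, SHR 4 and SHR 5 were above every WKY array, and SHR 1 and SHR 2 lay within the WKY range. Only SHR 3 was at or above the 40th percentile of its array, so Cd68 was left out of the test. In a fit without that filter it had a log2 difference of 0.70 ± 0.21 (limma adjusted p = 0.0987), beside 2.18% of probe sets past the threshold in that fit, 71.8% above 0 among those below the filter and a median of 0.094 among them. With offsets of 64 and 1 the difference was 0.29 and 1.39, and in none of 16 alternatives without the filter did it pass.

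Cathepsins and other lysosomal genes, which all brain cells express, were examined as a list of their own. Of 17 tested, Grn, the progranulin gene, was lower, at 275 ± 24.1 in SHR and 344 ± 28.7 in WKY (log2 difference -0.31 ± 0.074; limma adjusted p = 0.0245). Lamp1, a major lysosomal membrane protein, was higher, at 1539 ± 94.3 in SHR and 1281 ± 121 in WKY (0.26 ± 0.068; adjusted p = 0.0367). The cathepsin genes Ctsb, Ctsd and Ctsl differed by 0.11, 0.066 and -0.17 and did not pass. The median of the 17 was -0.032, with 10 below 0 and 7 above. Of all 10668 genes taken by their brightest kept probe set, 2.32% were lower and 1.67% higher in SHR. The call of Grn ended without SHR 1, SHR 2, WKY 1 or WKY 4, and that of Lamp1 in 7 of 10 fits without 1 array, those without SHR 2, SHR 3, SHR 4, WKY 1, WKY 3, WKY 4 or WKY 5. Neither held with the covariate or when SHR 2 and SHR 3 were both left out.

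Aif1 encodes Iba1, the calcium-binding protein most often stained to show microglia, and its probe sets gave opposite values. The brighter one, of the type that can match more than one transcript, had 151, 112, 129, 131 and 138 in SHR, against 228, 175, 216, 186 and 182 in WKY. Every SHR array lay below every WKY array. The means were 132 ± 14.2 for SHR and 197 ± 23.2 for WKY, and the log2 difference was -0.52 ± 0.089 (limma adjusted p = 0.00226), 1.44-fold lower in SHR, and it passed in all 22 alternatives.

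The dimmer probe set of Aif1 had 76.2, 123, 90.9, 89.8 and 44.7 in SHR, against 53.3, 76.3, 49.6, 36.3 and 52.8 in WKY. SHR 2, SHR 3 and SHR 4 were above every WKY array, and SHR 5 was lower than 4 of the WKY arrays. The log2 difference was 0.51 ± 0.18 and did not pass (limma adjusted p = 0.124). It passed without SHR 5 (0.68; adjusted p = 0.0172), was 0.11 with the median-signal covariate and was 0.29 without both SHR 2 and SHR 3. The log2 ratio of the brighter to the dimmer probe set was 0.60 ± 0.54 in SHR and 1.63 ± 0.36 in WKY (SD, n = 5 each), and the strains differed in it by -1.03 (exact two-sided permutation p = 0.0159). That ratio was examined after the opposite signs were known. The brighter and the dimmer probe set carry the same reference accession in the annotation, so the files do not tell which is closer to the level of the gene.

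Cd53, a tetraspanin of leukocytes and microglia, had 72.2, 77.4, 64.7, 79.6 and 81.5 in SHR, against 119.7, 104, 85.6, 106 and 101 in WKY. All SHR arrays were below all WKY arrays, with SHR 5 and WKY 3 nearest each other. The means were 75.1 ± 6.74 for SHR and 103 ± 12.2 for WKY, and the log2 difference was -0.39 ± 0.095 (limma adjusted p = 0.0274), 1.31-fold lower in SHR. The call ended in 6 of 10 fits without 1 array, namely SHR 1, SHR 3, WKY 1, WKY 2, WKY 4 or WKY 5. The limma adjusted p was up to 0.0777 in them, while the difference over the 10 fits ran from -0.44 to -0.34. The call also ended without both SHR 2 and SHR 3 (-0.34; adjusted p = 0.0967) and with the covariate (-0.31; adjusted p = 0.375).

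**Figure D2:**
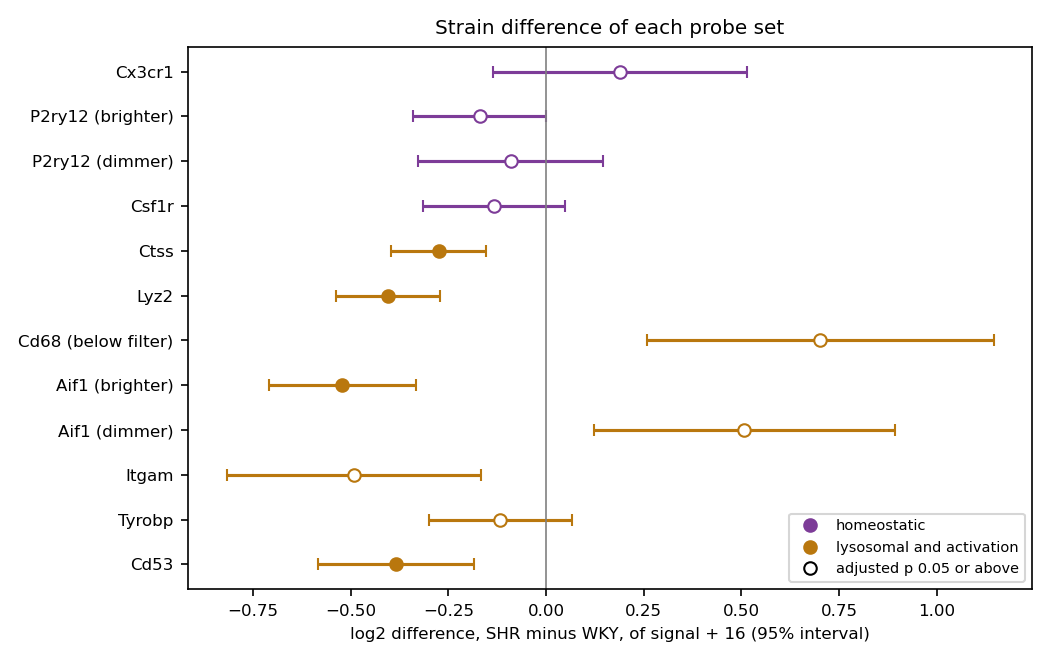
Log2 difference, SHR minus WKY, of each probe set with its 95% interval, where filled points passed an adjusted p of 0.05. The 4 filled points are Ctss, Lyz2, the brighter probe set of Aif1 and Cd53, all below 0. Cd68 and the dimmer probe set of Aif1 are above 0 and did not pass.

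**Figure D3:**
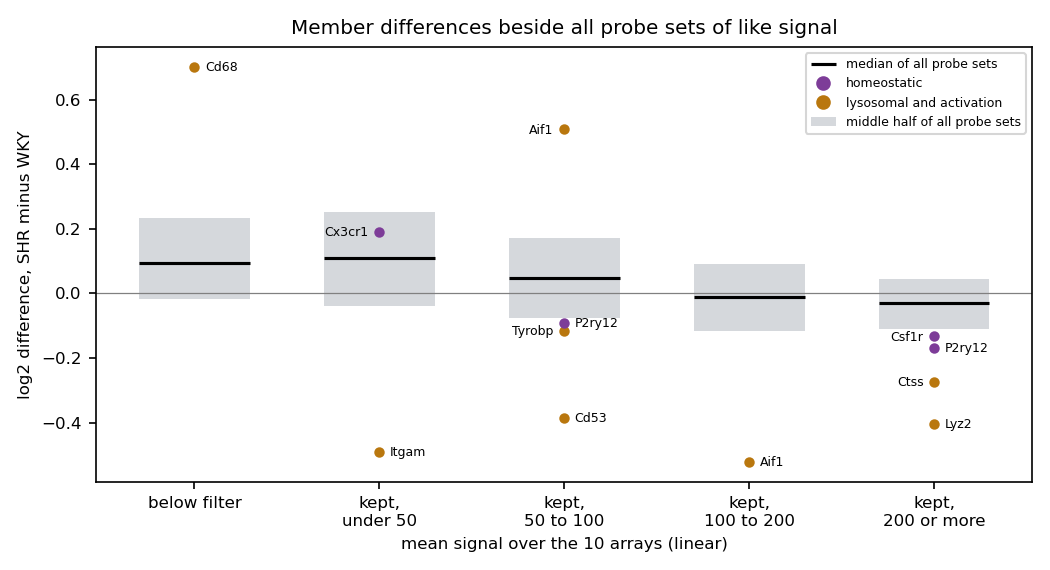
Differences of the 12 probe sets beside all probe sets of like mean signal, with the interquartile range of all probe sets in grey and their median as a line. The median is 0.11 for kept probe sets under 50 and -0.030 at 200 or more. Cx3cr1 lies within its grey bar, Cd68 and the dimmer probe set of Aif1 lie above theirs, and the other probe sets lie below theirs, Csf1r, Tyrobp and both of P2ry12 by the least.

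Promoter sequence was available for 7 of the 10 genes, from RefSeq on the build GRCr8. The stretches printed are the 110 bases before the start of Ctss, Lyz2 and Cd53, since these were the genes lower in SHR that had an entry. The capitals mark the 7 letters ACTTCCT, the reverse complement of AGGAAGT, a core that the myeloid factor PU.1 and other ETS factors are known to bind.
Ctss, chr2:185775286-185775395, plus strand: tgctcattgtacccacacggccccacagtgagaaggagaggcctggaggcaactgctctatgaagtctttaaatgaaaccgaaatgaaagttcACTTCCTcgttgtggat
Lyz2, chr7:54798012-54798121, minus strand: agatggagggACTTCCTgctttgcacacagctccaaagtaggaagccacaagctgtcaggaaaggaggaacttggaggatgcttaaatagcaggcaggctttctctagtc
Cd53, chr2:197087897-197088006, minus strand: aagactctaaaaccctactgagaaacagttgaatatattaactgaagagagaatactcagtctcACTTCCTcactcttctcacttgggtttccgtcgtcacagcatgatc
The match begins 17 bases before the start in Ctss, 46 in Cd53 and 100 in Lyz2. Searched on both strands of windows of 300 bases, from 250 before to 50 after the start, AGGAAGT was found in 4 of the 7 genes, in Cx3cr1 beside these 3, and in 8.41% of all 33469 windows. It was not in the windows of Itgam, Cd68 and Csf1r. The longer form GAGGAAGT, which overlaps it, was found in Ctss and Cd53, and in 2.42% of all windows. Genes with the letters thus included 1 that did not pass, Cx3cr1. The motif was chosen after these windows had been seen.

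Set side by side, the 3 homeostatic genes had a median difference of -0.13 and the 6 tested lysosomal and activation genes one of -0.39. Each gene was taken by its brightest kept probe set, and the median over all 10668 genes taken so was 0.0020. Of the homeostatic genes 0 passed, and of the other 6 genes 4 were lower. Of those 10668 genes, 3.98% passed and 2.32% were lower. The members were chosen with their values known, so these counts do not support a change of either set. In single arrays, the mean log2(signal + 16) of the lysosomal and activation genes lay between 7.13 and 7.32 in SHR, and between 7.56 and 7.68 in WKY. That of the homeostatic genes lay between 6.98 and 7.27 in SHR, and between 7.10 and 7.29 in WKY. The homeostatic mean minus the other was -0.34, -0.029, 0.13, -0.020 and -0.16 in SHR, against -0.39, -0.35, -0.47, -0.48 and -0.37 in WKY. All SHR arrays were above all WKY arrays in this contrast, SHR 1 only by a narrow margin. The 6 genes include Itgam, which reached the filter through WKY alone, and leave out Cd68, which was on the other side. Without Itgam, a choice made after seeing the data, the contrast was -0.65 to -0.32 in SHR and -0.80 to -0.69 in WKY, and the median of the 5 genes left was -0.39.

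That separation depended on which probe sets stood for the genes. With all 12 probe sets, which adds Cd68 and averages both probe sets of Aif1 and of P2ry12, the contrast was -0.18, 0.15, 0.12, 0.012 and -0.15 in SHR, against -0.032, -0.056, -0.16, -0.23 and -0.14 in WKY. The strains then overlapped, with SHR 1 and SHR 5 inside the WKY range. The median difference of the 7 lysosomal and activation genes was -0.28 on that basis and that of the homeostatic genes -0.13. The mean log2 value of these 7 genes was still lower in every SHR array (6.89 to 6.97) than in any WKY array (7.02 to 7.14). Because the genes were chosen with their values known, no test is given for these sets.

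**Figure D4:**
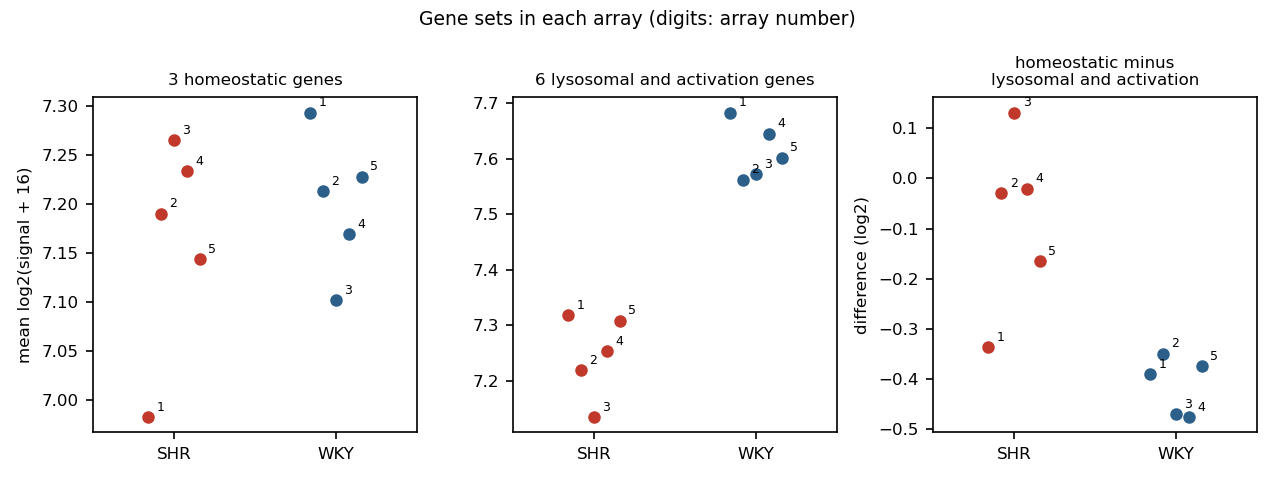
Mean log2(signal + 16) in each array of the 3 homeostatic genes (left), of the 6 tested lysosomal and activation genes (middle), and the first minus the second (right), each gene by its brightest kept probe set, with digits giving the array number. SHR lies between 7.13 and 7.32 and WKY between 7.56 and 7.68 in the middle panel, while the left panel overlaps.

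Other genes of microglia were taken from separate lists. Of 10 identity genes tested, Sall1, a transcription factor of microglial identity in mice, was lower, at 99.98 ± 9.37 in SHR and 129.8 ± 7.11 in WKY (log2 difference -0.33 ± 0.081; limma adjusted p = 0.0254). Its call ended in 5 of 10 fits without 1 array, those without SHR 1, SHR 4, WKY 1, WKY 2 or WKY 5, and also with the covariate and without both SHR 2 and SHR 3. Tmem119, a membrane protein specific to microglia in the brain, had 54.5 ± 6.50 in SHR and 61.1 ± 8.39 in WKY, and Gpr34, a receptor for lysophosphatidylserine, had 60.6 ± 12.9 and 73.2 ± 9.66. Of the 10, 7 were below 0 and 3 above, with a median of -0.14. Over all 10668 genes, 2.32% were lower in SHR and 3.98% passed in either direction. Among transcription factors of microglia 0 of 4 passed, while 1 was lower in 6 alternatives: quantile normalization, the stricter filter, the replicate block, and without SHR 1, SHR 4 or WKY 5. Mef2c, which neurons also express, averaged 66.0 ± 11.3 in SHR and 91.9 ± 11.3 in WKY (-0.40 ± 0.11; adjusted p = 0.0514), and Runx1 and Irf8 differed by 0.069 and -0.071. A second probe set of Mef2c was too dim to test, with a mean signal of 21.6. In the fit without the filter, where 2.18% of all probe sets passed, it differed by -1.17 ± 0.22 (limma adjusted p = 0.0133).

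Of 10 further genes that activated microglia are known to raise, Tspo, the mitochondrial protein targeted in imaging of neuroinflammation, was lower, at 171 ± 19.95 in SHR and 212 ± 12.8 in WKY (log2 difference -0.30 ± 0.080; limma adjusted p = 0.0472). The call held in only 2 of 10 fits without 1 array, those without SHR 2 or SHR 3, and ended with quantile normalization, without the filter, without the intensity trend and with the covariate. In the fits without SHR 1 or SHR 5, 1 gene of the list was higher. Apoe, the brightest tested gene of the list, averaged 5756 ± 806 in SHR and 4582 ± 554 in WKY. Its log2 difference of 0.33 ± 0.096 was opposite in sign to that of Tspo and missed the threshold (limma adjusted p = 0.0632). The median of this list was 0.11, with 7 of 10 above 0, so it did not lie on the same side as the median of the lysosomal and activation members. Astrocytes and endothelium express several of these genes as well.

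**Figure D5:**
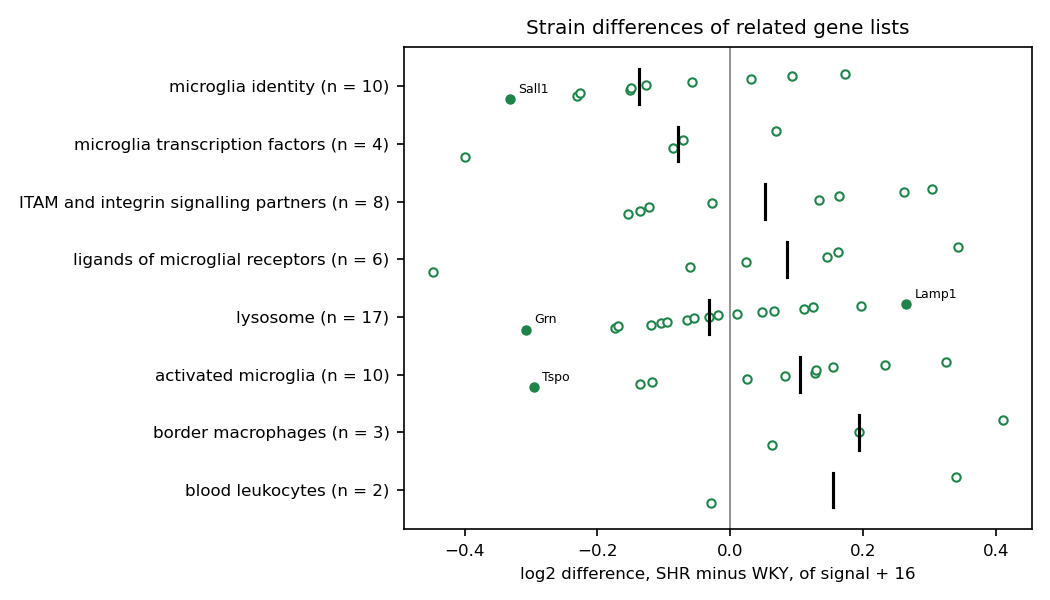
Log2 differences, SHR minus WKY, of the tested genes of 8 related lists, 1 point a gene, with filled points past an adjusted p of 0.05 and the median of each list as a black line. The filled points are Sall1, Grn and Tspo below 0 and Lamp1 above 0.

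Macrophages of the brain's borders and blood leukocytes share several of the 10 genes. Counts for the lists below stand beside 3.98% of all 10668 genes past the threshold, 2.32% lower and 1.67% higher in SHR. Of 10 border macrophage markers 3 were bright enough to test, 0 passed (1 was higher without the intensity trend), and the median was 0.19. Their summed signal was 147 to 210.2 in SHR and 107 to 158 in WKY. Pf4 averaged 56.6 ± 9.17 in SHR and 38.5 ± 5.32 in WKY (log2 difference 0.41 ± 0.12; limma adjusted p = 0.0605). All SHR arrays were above all WKY arrays, as in 3.22% of all tested probe sets. Pf4 had a mean signal of 47.6, in the dim range where kept probe sets had a median difference of 0.11. Folr2 and Cd74 differed by 0.19 and 0.063, at mean signals of 51.6 and 50.6. Kept probe sets of 50 to 100 had a median of 0.047, with 60.8% above 0. The defining markers Cd163 and Mrc1 were below the filter, with means of 8.94 and 28.9 in SHR and 4.06 and 18.9 in WKY. Of all probe sets below the filter 71.8% were above 0. The part of that shift in the border macrophage values was not tested. Of 9 measured leukocyte markers 2 were tested, Lck (-0.029) and Ms4a1 (0.34), and 0 passed, with a summed signal of 105 to 155 in SHR and 98.9 to 139 in WKY, and Ccr2, the monocyte receptor, was at 7.62 ± 5.78 in SHR and 7.10 ± 3.85 in WKY. Of markers of the meninges, 1 of 6 was lower, the prostaglandin synthase gene Ptgds (-0.30). Their summed signal was 1057 to 1180 in SHR and 1235 to 1406 in WKY, with a median difference of 0.0023, 3 below 0 and 3 above. Over the 7 measured markers other than Ptgds, those too dim to test included, the sum was 320.5 to 450 in SHR and 326 to 548 in WKY. The strains then overlapped. The call of Ptgds held only without SHR 5, WKY 1 or WKY 4 among the fits without 1 array. Markers of astrocytes had a median of 0.061 with 0 of 7 past the threshold, 4 above 0 and 3 below. S100b, Gja1 and Aqp4 differed by 0.20, 0.13 and 0.11, and Gfap, Aldh1l1 and Slc1a2 by -0.085, -0.051 and -0.014. Of 4 choroid plexus markers 2 were higher, Enpp2 (0.28) and Sostdc1 (0.47), against 1.67% of all genes. The summed signal of the 4 was 858 to 1017 in SHR and 648 to 917 in WKY. Sostdc1, at a mean signal of 37.4, was in the dim range that leaned upward in SHR. Of 10 neuronal markers 1 was higher, Snap25 (0.33). The calls of Enpp2, Sostdc1 and Snap25 ended in 6, 8 and 7 of the 10 fits without 1 array. The neuronal markers had a median of 0.087, with 7 above 0 and 3 below. The myelin gene Mobp (-0.34) and the endothelial gene Vwf (-0.52) were lower, 1 of 7 tested in each list. The median of the oligodendrocyte list was -0.038, with 5 below 0 and 2 above. That of the endothelial list was -0.0079, with 4 below 0 and 3 above. The calls of Mobp and Vwf ended with the covariate and without both SHR 2 and SHR 3, and that of Vwf also without WKY 5. The other kept probe sets of Mobp differed by -1.41 (limma adjusted p = 9.68e-09) and -0.022. The haemoglobin gene Hbb differed by -0.056. The part of these other cell types, and of the lower sum of NTS neuron markers, in the values of Lyz2, Ctss, Aif1 and Cd53 was not tested.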

How the data were processed

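Each of the 10 arrays has 1 deposited intensity per probe set, linear in scale, from GCOS 1.2 (per the submitters' processing notes) and from RNA amplified with a MessageAmp II kit (per the labels' protocols). For background correction and detection, the sources used here give no method, so no signal is called present or absent. The deposited intensity values share a mean of 100 per array once 2% is trimmed at each end, the scaling having been done by the authors. No batch label is given. No pair of arrays shared more than 2 identical values. The number of arrays limits the precision.

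Strain came from the sample titles, and the sample of each strain without a number is called 1. The 57 control probe sets were left out. Values were taken as log2(signal + 16). Probe sets reaching an array's 40th percentile on 5 or more of the 10 arrays were tested (18846 of 31042). The model held strain alone and was run with lmFit and eBayes, trend included, in limma 3.58.1 under R 4.3.3, after a trial on simulated data. Exact permutation tests used all 252 assignments of arrays.

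Genes were named from the platform annotation, updated by Entrez identifier to RefSeq GRCr8. A gene of a list was represented by its brightest kept probe set. The text names all probe sets of the 10 genes, list genes past the threshold or, in lists with none, up to 3 by signal, and leading markers of other cell types. Other list genes were named after their values were seen. Members, lists and alternatives were chosen with earlier results of these data known.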

Additional observations from a re-analysis of the deposited data

How the results depend on the processing

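The calls of Lyz2 and the brighter probe set of Aif1 held in all 22 alternative fits, those of Ctss in 21 and of Cd53 in 14. The count of member probe sets lower in SHR was 4, and 2 of all member probe sets passed, both lower, with the median signal of the array as a covariate. Without 1 array the count of members past the threshold ran from 3 to 5, of those lower from 3 to 4 and of those higher from 0 to 1. The covariate gave medians of -0.037 for the homeostatic and -0.28 for the lysosomal and activation genes, and turned Cx3cr1 to -0.037. The median of the lysosomal and activation genes was -0.26 with an offset of 64, -0.34 without both SHR 2 and SHR 3, -0.33 when kept probe sets of a gene were averaged and -0.28 with all probe sets. Over all tested probe sets 803 passed, 388 higher and 415 lower in SHR, against 206, 84 and 122 with the covariate, and 512 and 210 in all and higher without both SHR 2 and SHR 3. The filter at the 60th percentile left 249 higher. Without 1 array the counts ran from 480 to 976 in all, from 216 to 468 higher and from 253 to 508 lower. The covariate is mostly higher in SHR and so overlaps with strain, and the cause of the other changes was not tested. Deviations from the strain means correlated at 0.038 to 0.28 between same-numbered arrays and at -0.24 to 0.19 between others, and 6 of 10 arrays correlated best with their own number. The medians were 0.13 between same-numbered arrays and -0.062 between others. No label names a shared batch, and the main model did not pair the arrays, though same-numbered arrays correlated more in the median. Whether the numbers mark arrays processed together is not known. The replicate number as a block gave 1214 in all, 585 higher and 629 lower, with 4 members lower as without the block. The block changed no call of a member, but added 1 lower gene each to the transcription factor and neuron lists and 1 higher gene each to the ligand, astrocyte, activated microglia and oligodendrocyte lists. Cx3cr1 and Itgam had no fit with the stricter filter. Alternatives for Cd68 were chosen after seeing the data.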
